A study of Homo sapiens with 6 samples.

Results

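The apolipoprotein L genes are a family of neighbouring genes on human chromosome 22. The rows of the deposited tables with the symbols APOL1, APOL2, APOL3, APOL4 and APOL6 were taken, which gave 5 of the 29889 genes with counts. A549, a human lung adenocarcinoma cell line, had been transfected with a pIRES-hrGFP-1a plasmid carrying CELF6 (CELF6-OE) or with the same plasmid without insert (Control). CELF6 is an RNA-binding protein. Cells of both groups were transfected with Lipofectamine 2000, so there was no untransfected group. By the authors' methods the cells were harvested after 48 h, and polyadenylated RNA of 3 biological replicates per group was sequenced. Whole transfected cultures were sequenced, so cells with and without the plasmid were measured together. In bulk RNA of this kind, fewer cells expressing a gene and less RNA per cell cannot be told apart.

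APOL1 is the secreted member of the family. It circulates on high-density lipoprotein (HDL) and lyses African trypanosomes. The other members lack a signal peptide for secretion and act inside the cell. APOL3 is known for attacking the membranes of bacteria in the cytosol, and APOL6 for promoting cell death when overexpressed. Several APOL genes are known to be induced by interferons and by tumour necrosis factor (TNF).

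On the GRCh38 genome, with the gene spans of GENCODE v44, all 5 genes lay on chromosome 22. APOL6 (ENSG00000221963.5), on the plus strand at chr22:35648446-35668404, stood apart from the rest. The other genes formed a block of 127 kb that began 472 kb beyond the end of APOL6. In this block APOL3 (ENSG00000128284.19, chr22:36140329-36166177), APOL4 (ENSG00000100336.17, chr22:36189124-36204840) and APOL2 (ENSG00000128335.13, chr22:36226209-36239954) lay on the minus strand. APOL1 (ENSG00000100342.20, chr22:36253071-36267530) lay on the plus strand and pointed away from APOL2, with 13.1 kb between their start sites. No other annotated gene overlapped any of the 5 on either strand. No window of 100 bases of a transcript of one member was found as an exact match in a transcript of another. Stretches that differ by a few bases were not examined, and the authors' mapping allowed mismatches.

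The total count per library was 33748328 to 37920700. The 3 Control libraries held 0 counts of CELF6. The FPKM of CELF6 (a fragment count scaled to transcript length and sequencing depth) was 270, 295 and 172 in CELF6-OE replicates 1, 2 and 3. With an upper limit of 3 counts set for a Control library, the mean level of CELF6 was at least 5935-fold higher with its plasmid. In replicate 3 CELF6 stood at 61.0% of the mean of replicates 1 and 2. A gene was called when its fold change reached 1.5 and its Benjamini-Hochberg adjusted p from edgeR's quasi-likelihood test was under 0.05. This called 5.82% of the 15847 genes tested lower and 1.35% higher. Of 9 markers of epithelial and A549 cells, 9 had counts in every library, with a summed FPKM between 8144 and 9370 in the CELF6-OE libraries and between 10110 and 10280 in the Controls, and 1 was called lower, the epithelial cadherin CDH1 at a log2 fold change of -1.62 (SE 0.172). The 11 leukocyte markers had a sum between 6.52 and 7.97 in the CELF6-OE libraries and between 12.24 and 13.01 in the Controls. Of these, 5 had counts in every library, with CD14 and CD68 above an FPKM of 1, and CD3E, CD3D and NKG7 had 0 counts. Of the 11, 2 were called lower, CD68 at -1.50 (SE 0.152) and ITGAM at -0.73 (SE 0.165). Of 6 fibroblast markers 2 had counts in every library and COL1A2 had 0 counts, with a sum of at most 0.47. Of 5 endothelial markers 1 had counts in every library and TEK had 0 counts, with a sum of at most 0.07. PECAM1, an endothelial marker, was called lower at -1.86 (SE 0.425). The part of these markers in the changes of the APOL genes was not tested.

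APOL1, APOL2, APOL3 and APOL6 fell in CELF6-OE, by factors that ranged from 1.99 for APOL2 to 8.16 for APOL3 on the FPKM scale. APOL4 was barely detected in either group. By the rule for calls 4 of the 5 genes were called lower, against 5.82% of the 15847 genes tested, and none was called higher, against 1.35%. APOL4 was removed by the filter on low counts. The other 4 genes each had at least 49 counts in every library, so they entered the test through both groups. For each of these 4 genes the highest CELF6-OE library was lower than the lowest Control library, an order seen in 20.0% of the genes tested.

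**Figure D1:**
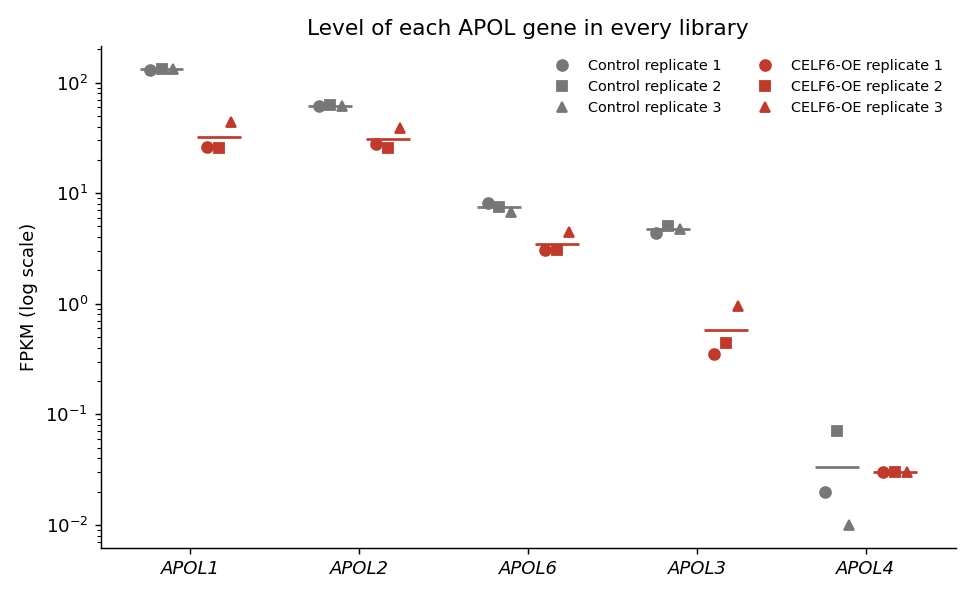
FPKM on a log axis of each APOL gene in the 3 Control libraries (grey) and the 3 CELF6-OE libraries (red), with a line at the mean of each group. APOL1, APOL2, APOL6 and APOL3 were lower in every CELF6-OE library than in any Control library, and APOL4 stayed at or under 0.07 in all 6.

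APOL1, the secreted trypanolytic protein, had the highest level of the family in Control. Its FPKM was 131, 132 and 133 in Control replicates 1, 2 and 3, and 26.3, 25.6 and 44.4 in the CELF6-OE replicates. The Control libraries stood close together, and in CELF6-OE the third replicate was the high one. The means were 132 ± 1.16 (SD, n = 3) in Control and 32.1 ± 10.6 (SD, n = 3) in CELF6-OE, a level at 24.3% of Control. The log2 fold change from the counts was -2.07 with a standard error of 0.174, at an adjusted p of 2.96e-05 (edgeR quasi-likelihood test, Benjamini-Hochberg). Ordered from the lowest fold change, APOL1 was gene 121 of 15847.

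APOL3, the member known for its action on bacteria in the cytosol, had the largest fold change of the 5 genes. The counts were 643, 774 and 721 in Control replicates 1, 2 and 3, and 49, 63 and 130 in the CELF6-OE replicates. In FPKM these were 4.39, 5.08 and 4.73 in Control and 0.35, 0.44 and 0.95 in CELF6-OE. The groups did not overlap, and the third CELF6-OE replicate was again the highest of its group. The mean FPKM was 4.73 ± 0.345 (SD, n = 3) in Control and 0.58 ± 0.324 (SD, n = 3) in CELF6-OE. The log2 fold change was -3.06 with a standard error of 0.257, at an adjusted p of 2.93e-05 (edgeR quasi-likelihood test, Benjamini-Hochberg). APOL3 was gene 39 of 15847 in the order of fold changes. When log2(FPKM + 1) was tested in place of the counts, the pseudocount of 1 was larger than the CELF6-OE values, and the difference was -1.88 on that scale.

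APOL2, a cytoplasmic member encoded beside APOL1, fell less. Its FPKM was 61.1, 62.4 and 61.5 in Control replicates 1, 2 and 3, and 27.9, 25.8 and 39.2 in the CELF6-OE replicates. The lowest Control library stood above the highest CELF6-OE library. The mean FPKM was 61.6 ± 0.67 (SD, n = 3) in Control and 31.0 ± 7.19 (SD, n = 3) in CELF6-OE, which was 50.3% of Control. The log2 fold change was -1.02 with a standard error of 0.128, at an adjusted p of 0.000296 (edgeR quasi-likelihood test, Benjamini-Hochberg).

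APOL6, the member set apart from the block and known for promoting cell death, changed by about as much as APOL2. Its FPKM was 8.19, 7.49 and 6.79 in Control replicates 1, 2 and 3, and 3.07, 3.03 and 4.41 in the CELF6-OE replicates. The first Control replicate was the highest and the third CELF6-OE replicate the highest of its group, and the groups did not overlap. The mean FPKM was 7.49 ± 0.7 (SD, n = 3) in Control and 3.50 ± 0.785 (SD, n = 3) in CELF6-OE, which was 46.8% of Control. The log2 fold change was -1.12 with a standard error of 0.128, at an adjusted p of 0.00017 (edgeR quasi-likelihood test, Benjamini-Hochberg).

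APOL4 was near the limit of detection. It had 3, 11 and 2 counts in Control replicates 1, 2 and 3, and 5, 4 and 4 counts in the CELF6-OE replicates. The groups overlapped, and the second Control replicate alone was above the CELF6-OE range. The sums were 16 counts in Control, with an exact Poisson 95% interval of 9.14 to 26.0, and 13 counts in CELF6-OE, with an interval of 6.92 to 22.2, which cover counting error only. In a fit of all genes without the filter the log2 fold change was -0.22 with a standard error of 0.687 and an adjusted p of 0.878 (edgeR quasi-likelihood test, Benjamini-Hochberg). No change of APOL4 was therefore detected, and at this depth a small or moderate change could be missed. With 1 library left out the log2 fold change ran from -0.59 to 0.84, which did not come near the -3.06 of APOL3.

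**Figure D2:**
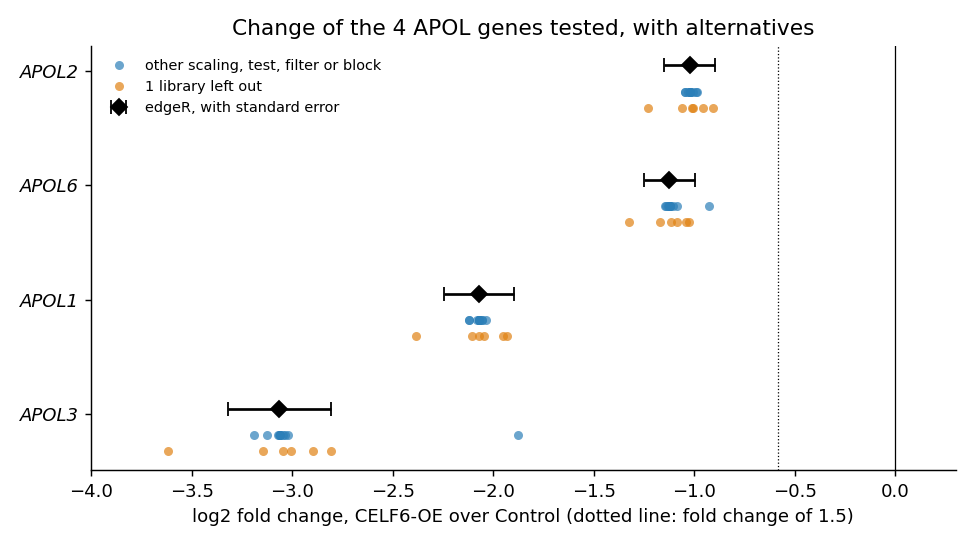
Log2 fold change of CELF6-OE over Control for the 4 APOL genes tested, with its standard error (black), under other scalings, tests, filters or the block (blue) and with 1 library left out (orange). The dotted line marks a fold change of 1.5, and all values of APOL1, APOL2, APOL3 and APOL6 lay to its left.

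A two-sided exact permutation test over the libraries gave p = 0.1 for each of APOL1, APOL2, APOL3 and APOL6, the smallest value that 3 libraries against 3 allow. For APOL4 the exact permutation p was 1.

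The third CELF6-OE replicate stood apart from the other two in all 4 genes that fell. Its FPKM over the mean of replicates 1 and 2 was 1.71 for APOL1, 1.46 for APOL2, 2.41 for APOL3 and 1.45 for APOL6, whereas for CELF6 it was 0.61. As a share of the Control mean, APOL1 stood at 19.9%, 19.3% and 33.6% in CELF6-OE replicates 1, 2 and 3, and APOL3 at 7.39%, 9.30% and 20.1%. APOL2 stood at 45.3%, 41.9% and 63.6%, and APOL6 at 41.0%, 40.5% and 58.9%. The same library held the highest value in CELF6-OE for 70.7% of the 922 genes called lower and for 32.5% of all genes tested. The part of the lower CELF6 level in this was not tested. Without replicate 3 of CELF6-OE the log2 fold changes were larger in size, at -2.38 for APOL1, -1.23 for APOL2, -3.62 for APOL3 and -1.33 for APOL6. The coefficient of variation between CELF6-OE replicates was 33.2% for APOL1, 23.2% for APOL2, 55.8% for APOL3 and 22.4% for APOL6, and between Control replicates 0.876%, 1.09%, 7.29% and 9.35%.

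Since FPKM is set per length, the levels of the genes could be compared within a library. In all 3 Control libraries and in CELF6-OE replicate 3 the order was APOL1, APOL2, APOL6, APOL3 and APOL4, from high to low. In CELF6-OE replicates 1 and 2 APOL2 stood above APOL1, and the rest of the order was kept. The FPKM of APOL1 over that of APOL2 was 2.15, 2.11 and 2.17 in Control replicates 1, 2 and 3, and 0.943, 0.99 and 1.13 in the CELF6-OE replicates. APOL1 was thus above APOL2 in every Control library, whereas in CELF6-OE the pair differed by less than the spread of either gene. Further down the order, the libraries of APOL2 and APOL6, of APOL6 and APOL3, and of APOL3 and APOL4 did not overlap within either group. The order was the same in each library when counts were divided by the length of the longest annotated transcript.

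The summed FPKM of the 5 genes was 205, 207 and 206 in Control replicates 1, 2 and 3, and 57.7, 54.9 and 88.9 in the CELF6-OE replicates, on average 3.07-fold lower. The share of this sum that came from APOL1 was 64.1% ± 0.455 (SD, n = 3) in Control and 47.4% ± 2.23 (SD, n = 3) in CELF6-OE. The share of APOL2 was 29.9% ± 0.217 (SD, n = 3) in Control and 46.5% ± 2.22 (SD, n = 3) in CELF6-OE. APOL6 made up 3.64% of the sum in Control and 5.27% in CELF6-OE, and APOL3 made up 2.30% and 0.825%.

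Whether the members changed by different amounts was tested on the log2 ratio of the counts of a pair within each library, which does not depend on the scaling between libraries. The 4 genes with enough counts gave 6 pairs. The log2 ratio of APOL1 to APOL2 was 1.20 ± 0.0196 (SD, n = 3) in Control and 0.13 ± 0.136 (SD, n = 3) in CELF6-OE. The difference between the groups, CELF6-OE minus Control, was -1.07, in the direction of a larger fall of APOL1 than of APOL2, its neighbour on the opposite strand. Relative to each of the other 3 genes, APOL3 was lower in every CELF6-OE library than in any Control library. The log2 ratio of APOL3 to APOL6 had means of -4.09 ± 0.462 (SD, n = 3) in CELF6-OE and -2.05 ± 0.208 (SD, n = 3) in Control, a difference of -2.04. The difference between the groups was 2.14 for APOL2 to APOL3 and 1.06 for APOL1 to APOL3, with the higher ratio in CELF6-OE. For APOL1 to APOL6 it was -0.98. In these 5 pairs the groups did not overlap and each exact permutation p was 0.1, the smallest possible, or 0.12 after Benjamini-Hochberg adjustment over the 6 pairs, so none could pass a threshold of 0.05.

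APOL2 and APOL6 were the pair that could not be separated. Their log2 ratio was 1.09, 1.25 and 1.38 in Control replicates 1, 2 and 3, and 1.38, 1.29 and 1.35 in the CELF6-OE replicates. The groups overlapped, the difference was 0.10, and the exact permutation p was 0.3. The 9 differences between a CELF6-OE and a Control library ran from -0.09 to 0.29, which bounds how far the changes of these 2 genes differed between single libraries.

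**Figure D3:**
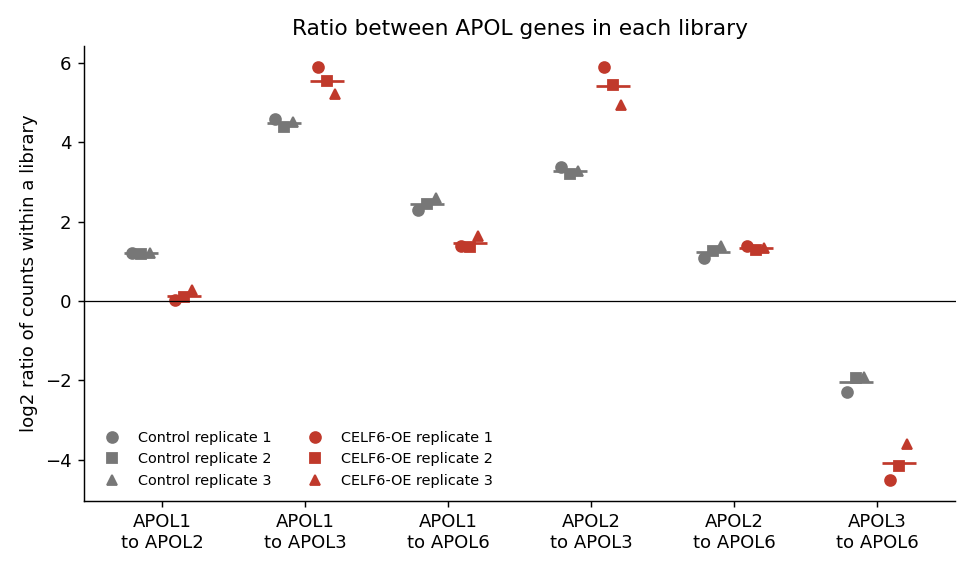
Log2 ratio of the counts of 2 APOL genes within each Control library (grey) and each CELF6-OE library (red), with a line at the mean of each group. The groups were apart in 5 pairs and overlapped for APOL2 to APOL6, where the group means were 1.24 and 1.34.

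The genes around the family gave a comparison by position. Of 14 other protein-coding genes of the count table within 500 kb of the span from APOL6 to APOL1, 12 were tested and 0 were called by edgeR's quasi-likelihood test. With 5.82% of all genes called lower and 1.35% higher, a count of 0 among 12 genes is near the share of all genes, and nothing particular to the neighbours is read from it. Of the 12, 2 were lower and 2 higher at an unadjusted p under 0.05. The 2 lower ones, TOM1 and MB, also passed the adjusted threshold and missed only the required fold. TOM1 changed by -0.36 (SE 0.0842) at an adjusted p of 0.0137 (edgeR quasi-likelihood test, Benjamini-Hochberg). DESeq2 and limma-voom called 0 as well. Their median log2 fold change was 0.06, and that of all genes tested was 0.01. MB, the oxygen-binding protein myoglobin, lies next to APOL6 and had the value nearest to the fold threshold. Its FPKM was 1.63, 1.98 and 1.98 in Control replicates 1, 2 and 3 and 1.45, 1.24 and 1.25 in the CELF6-OE replicates. Its log2 fold change was -0.54 with a standard error of 0.16 at an adjusted p of 0.0388 (edgeR quasi-likelihood test, Benjamini-Hochberg), short of the required fold. Without replicate 1 of Control it was -0.66 and MB was called. RBFOX2, an RNA-binding splicing regulator that lies between APOL6 and APOL3, had a log2 fold change of 0.18 (SE 0.0631). MYH9, the non-muscle myosin heavy chain gene beyond APOL1, had a log2 fold change of 0.23 (SE 0.0802). APOL5, a further member of the family that lies between APOL6 and the block, had 2 counts in CELF6-OE replicate 2 and 0 in the other 5 libraries.

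**Figure D4:**
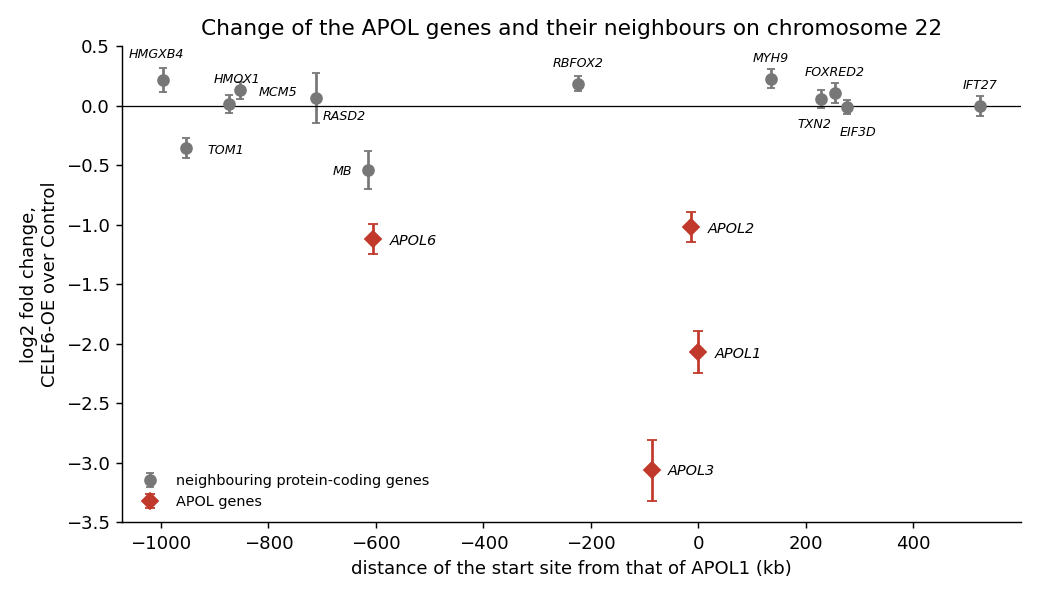
Log2 fold change, CELF6-OE over Control, with standard error, of the 4 APOL genes tested (red) and the 12 neighbouring protein-coding genes tested (grey) by the distance in kb of their start site from that of APOL1. The neighbours lay between -0.54 for MB and 0.23 for MYH9, and the APOL genes between -3.06 and -1.02.

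Genes of the signals known to induce the APOL family were taken next. On a list of 25 genes of interferon signalling (ligands, receptors, kinases, transcription factors and feedback inhibitors), 24 were tested, 11 were called lower and 0 higher, against 5.82% and 1.35% of all genes tested. The median log2 fold change of the list was -0.55, and that of all genes tested was 0.01. The gene not tested, IRF9, had a mean of 1.33 counts in each group. How reads of overlapping or read-through genes were counted is not given in the sources used here, so this value may not stand for the level of IRF9. The largest changes were those of the ligands. The interferon lambda genes IFNL1, IFNL2 and IFNL3 changed by -3.17 (SE 0.136), -3.12 (SE 0.189) and -3.15 (SE 0.289) on the log2 scale, and IFNB1, which encodes interferon beta, by -3.08 (SE 0.263). The mean FPKM of IFNL1 was 18.7 ± 1.92 (SD, n = 3) in Control and 2.12 ± 0.189 (SD, n = 3) in CELF6-OE. IFNL2 and IFNL3 are near-identical in sequence, so their separate values are uncertain. STAT3, a transcription factor of cytokine signalling, changed by -0.40 (SE 0.0577) and IRF3, a transcription factor that induces interferon genes, by -0.15 (SE 0.0809), and neither was called. STAT3 passed the adjusted threshold (adjusted p of 0.000794, edgeR quasi-likelihood test, Benjamini-Hochberg) and missed only the required fold. The same held for IFNAR2, IFNGR2, IL10RB, IRF2 and SOCS3, all in the lower direction.

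On a list of 15 genes of TNF and NF-kB signalling, 14 were tested and 3 were called lower, against 5.82% of all genes tested. None was called higher, against 1.35% of all genes, a share at which 14 genes need not hold any. The median log2 fold change was -0.18. The called genes were TNFRSF1B, a TNF receptor, at -1.94 (SE 0.183), TNFAIP3, an inhibitor of NF-kB, at -0.76 (SE 0.104), and TRADD, an adaptor of TNF receptor 1, at -0.74 (SE 0.0857). TNFRSF1A, the main TNF receptor, had a log2 fold change of -0.0041 (SE 0.061) and NFKBIA, the inhibitor of NF-kB in the cytosol, of -0.42 (SE 0.0624), and neither was called. NFKBIA missed only the required fold, at an adjusted p of 0.00094 (edgeR quasi-likelihood test, Benjamini-Hochberg). NFKB2 and NFKBIE, also lower, missed only the fold as well. In these 2 lists no gene was higher at an unadjusted p under 0.05, and DESeq2 and limma-voom called 0 higher as well.

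A list of 34 genes of other apolipoproteins and of HDL, the particle that carries APOL1 in blood, had 31 in the count table and 19 tested. Of these, 5 were called lower and 0 higher, against 5.82% and 1.35% of all genes tested, with a median log2 fold change of -0.34, and 1 was higher at an unadjusted p under 0.05. The acute-phase proteins SAA1 and SAA2, near-identical genes whose separate values are uncertain, changed by -2.62 (SE 0.234) and -2.72 (SE 0.344). SAA2 was near the floor, at a mean FPKM of 0.383 in Control and 0.0567 in CELF6-OE, where it had a mean of 4.67 counts. APOD, which encodes a lipocalin, changed by -1.22 (SE 0.24) from a mean FPKM of 1.16 to 0.507. The paraoxonase PON1 was called lower at a mean FPKM of 0.473 in Control and 0.243 in CELF6-OE, and the paraoxonase PON3 changed by -0.68 (SE 0.142). CLU, the chaperone clusterin, had a log2 fold change of -0.02 (SE 0.0675) and PON2 of -0.42 (SE 0.0968), and neither was called. PON2 missed only the required fold, at an adjusted p of 0.0134 (edgeR quasi-likelihood test, Benjamini-Hochberg). So did SCARB1 at -0.54 (SE 0.0695) and PLTP at -0.57 (SE 0.164), with adjusted p of 0.000345 and 0.0342 by the same test. The count of 5 was 3 without replicate 2 of CELF6-OE.

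Of 7 genes whose products are described as partners of APOL proteins, 5 were tested and 2 were called lower, against 5.82% of all genes tested, with a median of -0.41. These were GBP1 at -1.81 (SE 0.159) and GBP2 at -1.42 (SE 0.151), interferon-induced GTPases that coat bacteria in the cytosol. The mean FPKM of GBP1 was 8.13 ± 1.83 (SD, n = 3) in Control and 2.35 ± 0.424 (SD, n = 3) in CELF6-OE. PI4KB, a lipid kinase of the Golgi, at -0.10 (SE 0.0666), and NCS1, a calcium sensor that binds it, at 0.35 (SE 0.0845), were not called. No gene of this list was called higher, although NCS1 passed the adjusted threshold in that direction (adjusted p of 0.0161, edgeR quasi-likelihood test, Benjamini-Hochberg) and missed only the required fold. VAMP8 did so in the lower direction, at -0.41 (SE 0.101) and an adjusted p of 0.0183 by the same test.

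**Figure D5:**
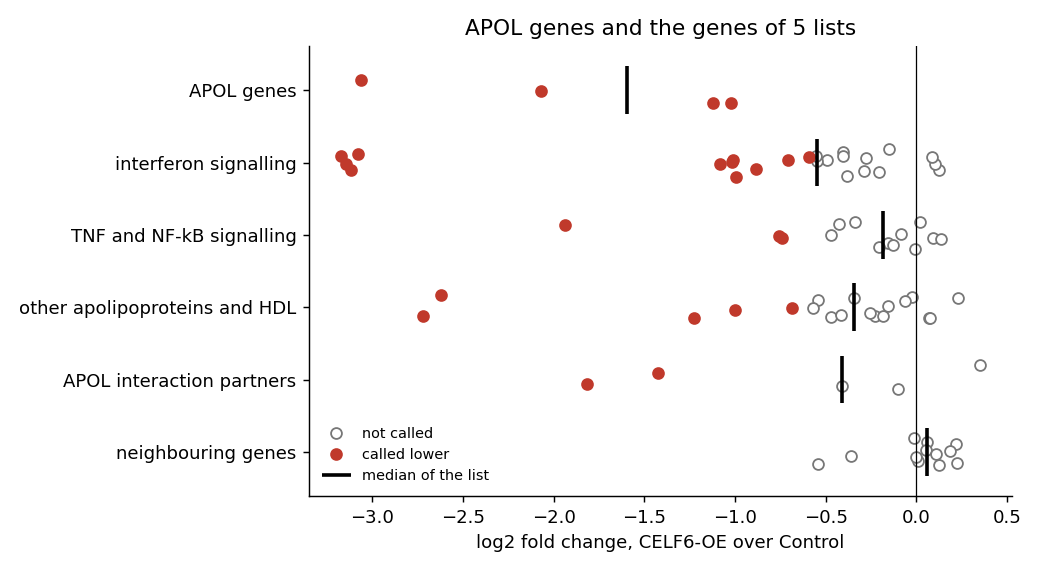
Log2 fold change, CELF6-OE over Control, of each gene tested among the APOL genes, the 4 lists and the neighbouring genes, with genes called lower filled and the median of each list as a black bar. The medians were -1.60 for the 4 APOL genes tested, -0.55 for interferon signalling, -0.18 for TNF and NF-kB signalling, -0.34 for other apolipoproteins and HDL, -0.41 for the partners and 0.06 for the neighbouring genes.

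The genes with the pattern most like that of APOL1 over the 6 libraries were found among 11436 genes with a mean of at least 100 counts, by the root mean square distance between log2 counts scaled to library size and centred on their mean. They were OASL at 0.0433, ISG20 at 0.0621 and MDK at 0.0784. OASL and ISG20 are interferon-induced antiviral genes, and MDK encodes the growth factor midkine. The FPKM of OASL was 144, 157 and 156 in Control replicates 1, 2 and 3 and 30.6, 28.3 and 49.5 in the CELF6-OE replicates, so that CELF6-OE replicate 3 was also the highest of its group. For APOL3 the nearest genes were IFNL3 at 0.151, BST2, which encodes the antiviral protein tetherin, at 0.178, and IDO1, a tryptophan-degrading enzyme, at 0.18. APOL1 and APOL3 themselves were 0.571 apart. The profiles were centred but not scaled, so genes that move alike by different amounts stand apart in this measure. CELF6-OE replicate 3 was the highest of its group for both APOL1 and APOL3. The FPKM of BST2 was 134, 134 and 129 in Control replicates 1, 2 and 3 and 13.6, 13.8 and 30.5 in the CELF6-OE replicates. All these distances rest on the same 6 libraries and are given as a description.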

How the data were processed

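RNA of A549 cells was sequenced in 3 CELF6-OE and 3 Control libraries, grouped by the sample labels. By their methods, the authors cleaned reads with FASTX-Toolkit, mapped them with TopHat2 to GRCh38 and kept uniquely placed reads for counting per gene. The counter, its strand option and the gene annotation are not given in the sources used here. The read counts per gene were deposited as whole numbers without normalization, and the FPKM values were deposited rounded by the authors. No column was left out.

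TMM factors were computed from the counts with edgeR 4.0.16 under R 4.3.3. The genes kept by filterByExpr at its minimum count of 10 entered the quasi-likelihood test of edgeR, adjusted by Benjamini-Hochberg, with prior degrees of freedom of 7.15 and a biological coefficient of variation of 8.62%. Without the filter these degrees of freedom were infinite, so that fit served only as an alternative and for APOL4. A prior count of 0.125 entered the log2 fold changes, and 0.5 counts were added in the pair ratios. Each standard error of a log2 fold change was derived from the test. It is the absolute log2 fold change over the square root of the quasi-likelihood F statistic. The procedure was tested on simulated data with known changes, planted only in genes well above the count level of APOL4. That test does not cover genes with so few counts. FPKM gave the mean and SD of each gene and the exact permutation tests, which were two-sided. The authors' methods call the replicates biological, and the labels do not say how they were grown. The p-values set the difference between the groups against the spread between these libraries and reach no further.

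The APOL genes and the lists were chosen with earlier results of these data known, and the lists support no statement on their own. Named genes were the members, CELF6, the neighbours called or nearest to the members, from each list up to 4 called genes of largest change and the 2 uncalled genes of highest count, and the 3 genes nearest in pattern to APOL1 and APOL3. IRF9, PON3, TOM1, VAMP8, the cell type markers and the further list genes that missed only the required fold were named after their values were seen. Alternatives used DESeq2 1.42.0, limma 3.58.1, other scalings, filters and thresholds, a block for the replicate number, and each library left out in turn.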

Additional observations from a re-analysis of the deposited data

How the results depend on the processing

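APOL1, APOL2, APOL3 and APOL6 were called lower under all 20 alternatives run, with log2 fold changes of -2.38 to -1.93, -1.23 to -0.91, -3.62 to -1.88 and -1.33 to -0.93. The largest Benjamini-Hochberg adjusted p among the edgeR, DESeq2 and limma fits was 0.0033, for APOL2. APOL4 changed sign, to 0.11 with limma-voom and to 0.84 without replicate 2 of Control, which held 11 of its 16 Control counts, and ranged from -0.59 to 0.84 with 1 library left out. Same-numbered libraries of the 2 groups did not deviate together (correlations of -0.0023, -0.0126 and -0.0668). With 3 libraries per group this cannot settle whether the samples were paired by number. With the replicate number as a block, the adjusted p of APOL1, APOL2, APOL3 and APOL6 was 8.4e-08, 1.06e-05, 1.84e-07 and 1.84e-05. Each was smaller than without the block (edgeR quasi-likelihood test, Benjamini-Hochberg). With the replicate number as a block the log2 fold change was -1.05 for APOL2, -3.13 for APOL3 and -0.11 for APOL4, 4 members were called, and 921 genes were called lower and 201 higher, against 922 and 214 without it. No CELF6-OE library correlated best with the Control library of its own number. Genes called lower numbered 417 and higher 53 with limma-trend on log2(FPKM + 1), 475 and 64 at a fold change of at least 2, and 1820 and 1025 with no minimum fold change. With 1 library left out they ranged from 672 to 989 lower and from 107 to 371 higher, at 107 without CELF6-OE replicate 2, 115 without Control replicate 2 and 371 without Control replicate 1. For the other apolipoproteins and HDL this range was 3 to 7 called lower, with 3 without CELF6-OE replicate 2, and for the neighbouring genes 0 to 1, with MB called without Control replicate 1. A window of 1000 kb gave 2 neighbours called lower, TST and C1QTNF6. Among the 5 genes depth limits APOL4, and 3 replicates limit each exact test.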
